A study of Mus musculus with 14 samples.

Results

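The genes described here encode the protein components of the cytosolic ribosome in mouse intestinal organoids, cultures of gut epithelium grown from its stem cells. Members were all gene symbols made of Rpl or Rps, a number, at most 1 of the letters a, x, y and l and at most 1 further number, and the stalk genes Rplp0, Rplp1 and Rplp2, with symbols marked as pseudogenes by the ending -ps left out (160 such symbols in the bulk files). The rule found 88 symbols, 87 of the 27399 genes in the bulk files and 80 of the 20707 genes in the single-cell files, with 79 in both. Of the 87, 49 belong to the large 60S subunit, 35 to the small 40S subunit and 3 to the stalk by their symbols. RefSeq lists 82 of them as protein coding, 4 as pseudogenes (Rpl6l, Rps12l1, Rps3a2 and Rps3a3) and 1, Rps4l, as a transcribed pseudogene. A few ribosomal or ribosome-associated genes whose symbols have another form, among them Rpsa, Fau, Rpl36al and Rack1, fall outside the rule.

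The study treated organoids with Isx-9, a small molecule, and asked how the cells respond. In the bulk RNA-seq, Lgr5-EGFP knock-in stem cells had been sorted out of organoids after 6 hours of Isx-9 at 25 µM (2 libraries) or of DMSO at 0.05% (2 libraries). Single-cell RNA-seq covered 4 libraries, 1 each: Chgb-mCherry reporter organoids (a knock-in) after 6 days of Isx-9 at 25 µM, the same reporter organoids after 6 days of DMSO at 0.05%, untreated reporter organoids and untreated wild-type organoids. The medium was ENR, which holds R-spondin1, Noggin and EGF, and treatment began 2 days after passaging. Chgb encodes a granule protein of enteroendocrine cells, and Lgr5 marks crypt stem cells. A further 6 ATAC-seq samples of the same sorted cells, 3 a group, were not analysed here. No label says that same-group libraries came from separate cultures, so a p-value covers no more than how these libraries vary, which may be technical variation.

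Each ribosome joins a small subunit, which reads the messenger RNA, to a large subunit, which forms the peptide bond and holds the exit tunnel for the growing protein. Ribosomal protein genes are transcribed at high levels in nearly every cell, and their messenger RNAs typically begin with a run of pyrimidines (C and T in the gene), the terminal oligopyrimidine feature through which mTOR signalling controls their translation. In the gut, stem and progenitor cells of the crypt divide fast and make many ribosomes, while cells that leave the cycle and specialise make fewer.

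The start windows below show this feature. Rpl7a is shown for its run, the longest among the members, and the others because they later stand at an end of the order in 1 of the comparisons. They are RefSeq sequences of build GRCm38.p6, printed 5′ to 3′ on the gene's own strand from 15 bases before the annotated start to 15 bases from it on, 30 bases in all. Capitals mark an unbroken run of C and T of at least 5 bases that covers the annotated start, and a window with no capitals has no such run. The table gave starts for 63 members, and 21 of them (33.3%) have such a run, the longest of 21 bases in Rpl7a, against 3191 of all 27025 genes in the table (11.8%). The annotated start need not be the start used in these cells, and only the gene's own strand was read.
Rpl7a, chr2:26910792-26910821, plus strand: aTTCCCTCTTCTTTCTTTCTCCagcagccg
Rpl35, chr2:39005117-39005146, minus strand: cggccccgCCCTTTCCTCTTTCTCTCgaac
Rps18, chr17:33955651-33955680, minus strand: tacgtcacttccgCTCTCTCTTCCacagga
Rps27, chr3:90213634-90213663, minus strand: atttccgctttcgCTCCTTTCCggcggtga
Rps21, chr2:180257364-180257393, plus strand: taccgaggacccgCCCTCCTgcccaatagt
Rpl39, chrX:37085208-37085237, minus strand: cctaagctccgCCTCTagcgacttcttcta
Rps2, chr17:24720048-24720077, plus strand: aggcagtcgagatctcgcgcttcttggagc
Rpl41, chr10:128549154-128549183, minus strand: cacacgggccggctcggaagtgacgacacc
Rps28, chr17:33824548-33824577, minus strand: ggtaccgcgtgcggtctcgcgagagcgaaa
Rpl12, chr2:32961697-32961726, plus strand: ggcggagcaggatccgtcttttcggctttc
The first 6 carry a run and the last 4 do not. Members with a run (Rps18 and Rpl39) and without one (Rps2 and Rpl41) occur among those low after Isx-9 below. Of the members high after 6 days, Rpl35 carries a run, and Rpl27, whose window is not shown, does not.

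After 6 hours of Isx-9, transcripts of the ribosomal protein genes made up a slightly smaller part of the sorted Lgr5-EGFP cells' RNA. The members took 3.93% and 3.97% of all gene counts in the Isx-9 libraries, against 4.51% and 4.21% in the DMSO libraries, in libraries of 18909542 to 19487264 counts. The groups did not overlap, and their means differed by -0.41 percentage points (3.95% ± 0.03 in Isx-9 cells and 4.36% ± 0.21 in DMSO cells, SD, n = 2 each). An exact permutation test, two-sided, gave p = 0.333, which is the smallest that 2 against 2 libraries allow. In bulk samples, fewer cells of a type and less RNA per cell cannot be told apart.

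Gene by gene the shift was small and went one way. Of 84 members that passed the filter on low counts, 67 fell, 1 rose and 16 were not called (edgeR quasi-likelihood test, Benjamini-Hochberg adjusted p under 0.05 over 17418 genes), where 20% of all tested genes fell and 27.3% rose. Estimates were below 0 for 82 of the 84, and the median log2 fold change was -0.27 (quartiles -0.34 and -0.23) against 0.02 over all tested genes. Both Isx-9 libraries lay below both DMSO libraries for 78 members (34.8% of all tested genes) and above them for 1 (38.9%). Many strongly expressed genes fell in this comparison: among genes with a mean of at least 100 CPM (counts scaled to a fixed library total), 54.7% fell and 70.5% had non-overlapping lower values, against 60 and 69 of the 69 members at that level. The authors' deposited table called 65 of the 87 members lower (13.1% of its genes) and 1 higher (20.5%).

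**Figure D1:**
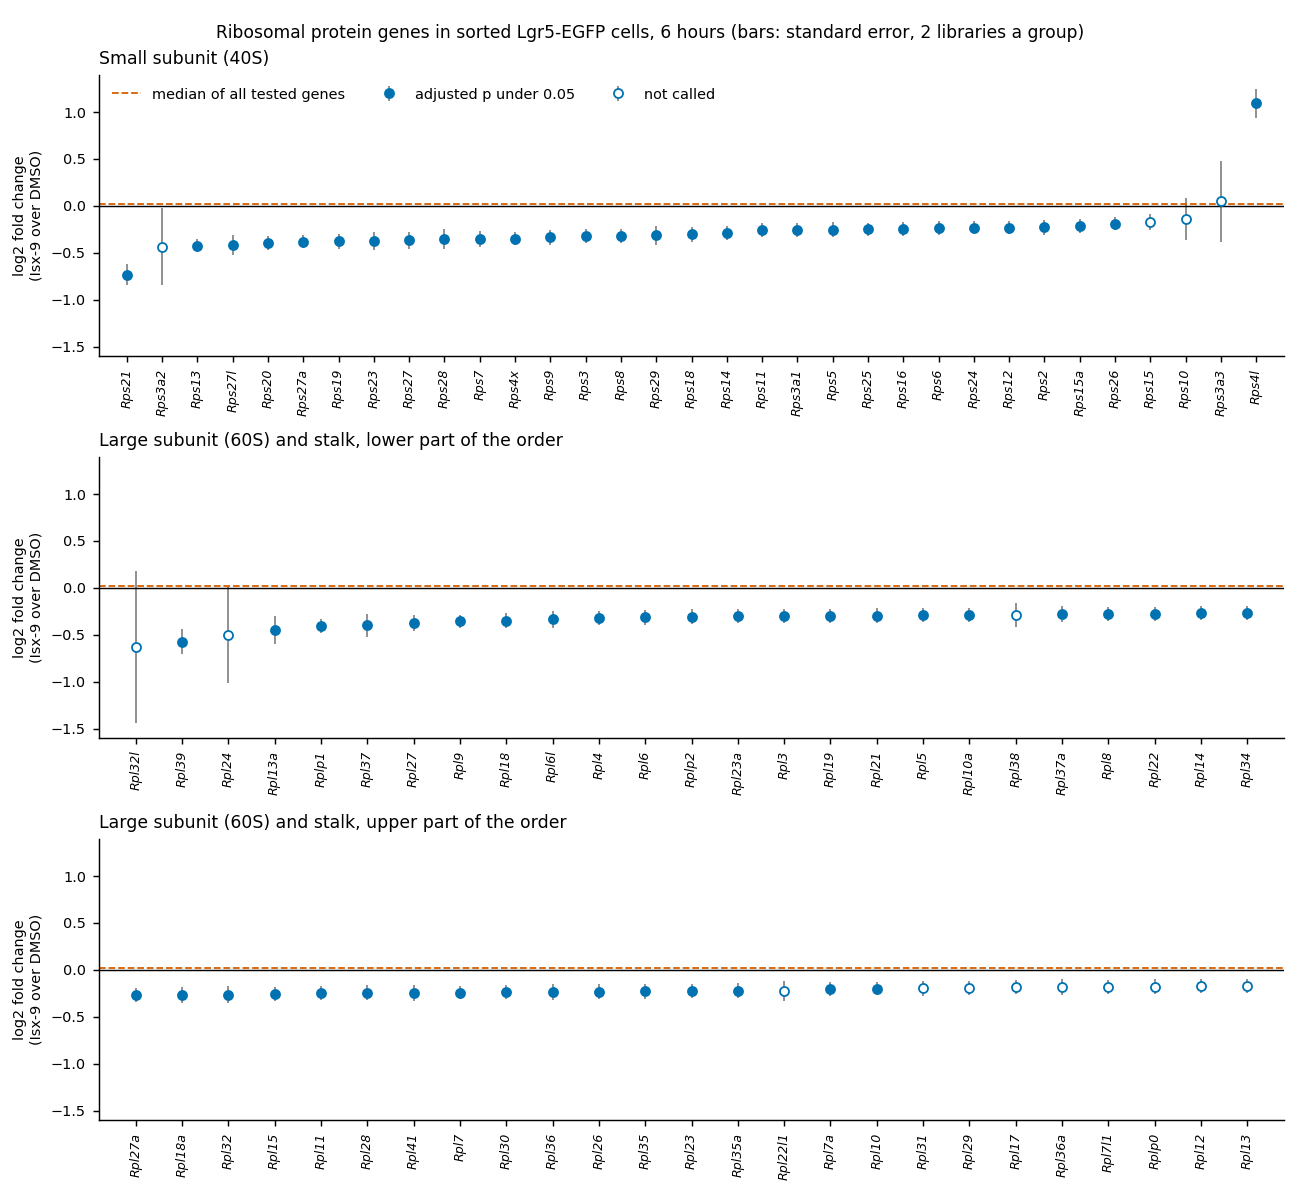
The log2 fold change of Isx-9 over DMSO at 6 hours for the members that passed the filter, 1 of them not drawn, each with its standard error (2 libraries a group); filled points passed the edgeR test at an adjusted p under 0.05, and the dashed line is the median of all tested genes, 0.02. The middle of the order lies between -0.34 and -0.23, with Rps21 lowest among the called members and Rps4l alone called above 0.

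The number of called members rested on scaling and on single libraries. Scaling by library size alone left 18 members lower (12% of all tested genes), since it moved the median of all genes to 0.14 and that of the members to -0.15, and the distance between them stayed at -0.29. Without Isx-9 replicate 1 the count was 29 (11.5% of all genes tested in that fit), and without DMSO replicate 1 it was 34 (15.2%).

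The small subunit held the largest decrease. Of 34 tested 40S members 29 fell (median log2 fold change -0.30), and of 47 tested 60S members 36 fell (median -0.27). Rps21, a component of the 40S subunit, had 53.3 and 43.3 CPM (scaled by TMM) in Isx-9 cells, against 84.7 and 75.9 CPM in DMSO cells. It fell by 0.73 on the log2 scale (SE 0.11, adjusted p = 0.000372, edgeR), with no overlap between the groups. Rps13 had 204 and 210 CPM in Isx-9 cells, against 278 and 277 CPM in DMSO cells, a change of -0.42 (SE 0.07, adjusted p = 0.000578, edgeR). Rps6, the substrate of the S6 kinases, had 1321 and 1343 CPM in Isx-9 cells, against 1596 and 1542 CPM in DMSO cells (-0.24, adjusted p = 0.0166, edgeR). Rps2, which lies at the entry of the messenger RNA channel, had 1524 and 1606 CPM in Isx-9 cells, against 1908 and 1763 CPM in DMSO cells (-0.23, adjusted p = 0.0263, edgeR). Neither of these 2 overlapped between groups, and each lay close to the members' median. Rps15 at -0.17 was the highest 40S protein-coding member with over 10 CPM, and it did not pass the test.

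In the large subunit the lowest called member was Rpl39, a very small protein of the exit tunnel. It had 66.9 and 73.3 CPM in Isx-9 cells, against 121 and 88.0 CPM in DMSO cells, and fell by 0.57 on the log2 scale (SE 0.13, adjusted p = 0.00388, edgeR) with the DMSO libraries far apart from each other. Rpl13a had 18.7 and 16.3 CPM in Isx-9 cells, against 24.2 and 23.6 CPM in DMSO cells (-0.45, SE 0.15, adjusted p = 0.0251, edgeR), and it missed the threshold in the authors' deposited table (adjusted p = 0.0876). Rpl4 had 1877 and 1953 CPM in Isx-9 cells, against 2466 and 2326 CPM in DMSO cells (-0.32, SE 0.07, adjusted p = 0.00374, edgeR). Rpl3, which sits near the peptidyl transferase centre, had 1394 and 1448 CPM in Isx-9 cells, against 1829 and 1672 CPM in DMSO cells (-0.30, SE 0.08, adjusted p = 0.00688, edgeR). All 4 were lower in both Isx-9 libraries than in either DMSO library. At the other end Rpl13, with 979 and 1034 CPM in Isx-9 cells, against 1142 and 1126 CPM in DMSO cells, did not pass (-0.17, adjusted p = 0.0678, edgeR).

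Stalk proteins recruit the elongation factors to the ribosome. Rplp1 fell by 0.41 on the log2 scale (477 and 467 CPM in Isx-9 cells, against 661 and 590 CPM in DMSO cells, adjusted p = 0.00132, edgeR), and Rplp2 fell by 0.31 (242 and 251 CPM in Isx-9 cells, against 318 and 291 CPM in DMSO cells, adjusted p = 0.00649, edgeR). Rplp0, which anchors the other two, had the most counts of all members and was not called, at 2286 and 2311 CPM in Isx-9 cells, against 2764 and 2439 CPM in DMSO cells (-0.18, SE 0.08, adjusted p = 0.0893, edgeR). The values of all 3 stalk genes were lower in Isx-9 cells without overlap.

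Several members are paralogs of another ribosomal protein gene, and whether they can stand in for it was not tested. Rpl22 fell (180 and 170 CPM in Isx-9 cells, against 217 and 207 CPM in DMSO cells; -0.28, adjusted p = 0.0114, edgeR), while its paralog Rpl22l1 did not pass (40.8 and 46.0 CPM in Isx-9 cells, against 49.6 and 51.7 CPM in DMSO cells; -0.22, adjusted p = 0.109, edgeR). The ratio of Rpl22l1 to Rpl22 counts was 22.6% and 27.1% in Isx-9 cells, against 22.8% and 25.1% in DMSO cells, so the groups overlapped. Rps27 (-0.37, adjusted p = 0.00748, edgeR) and Rps27l (-0.42, adjusted p = 0.00669, edgeR), a paralog known as a p53 target, both fell, and their ratio overlapped too (33.2% and 41.8% in Isx-9 cells, against 35.7% and 42.1% in DMSO cells). Rpl7 fell by 0.24 on the log2 scale (adjusted p = 0.0158, edgeR), and Rpl7l1 was at -0.18 (adjusted p = 0.0784, edgeR). Rpl10 fell by 0.20 (adjusted p = 0.0314, edgeR). The muscle paralog Rpl3l had 1 and 2 counts in Isx-9 cells, against 0 and 3 counts in DMSO cells. The testis paralog Rpl10l had 0 and 1 counts in Isx-9 cells, against 0 and 0 counts in DMSO cells. Neither was tested, and Rpl39l was listed only in the single-cell files, with 8 UMIs in the untreated wild-type library and 0 in the other 3.

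Rps4l moved against the rest. It had 889 and 674 counts in Isx-9 cells, against 365 and 306 counts in DMSO cells, or 44.3 and 33.6 CPM in Isx-9 cells, against 19.6 and 16.9 CPM in DMSO cells, with no overlap. It rose by 1.09 on the log2 scale (SE 0.16, adjusted p = 0.000218, edgeR), while Rps4x, the gene it resembles, had 810 and 811 CPM in Isx-9 cells, against 1063 and 1004 CPM in DMSO cells and fell by 0.35 (adjusted p = 0.00196, edgeR). Rps4l counts came to 5.47% and 4.15% of those of Rps4x in Isx-9 cells, against 1.85% and 1.68% in DMSO cells. Counts of such a near copy can hold reads of its parent and are uncertain for that reason. Of the pseudogene members, Rpl6l fell (-0.34, adjusted p = 0.0124, edgeR) and kept to 5.95% and 5.50% of the Rpl6 counts in Isx-9 cells, against 5.53% and 6.13% in DMSO cells. Rps3a2 at -0.44 and Rps3a3 at 0.05 rested on 36 to 70 counts and did not pass.

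**Figure D2:**
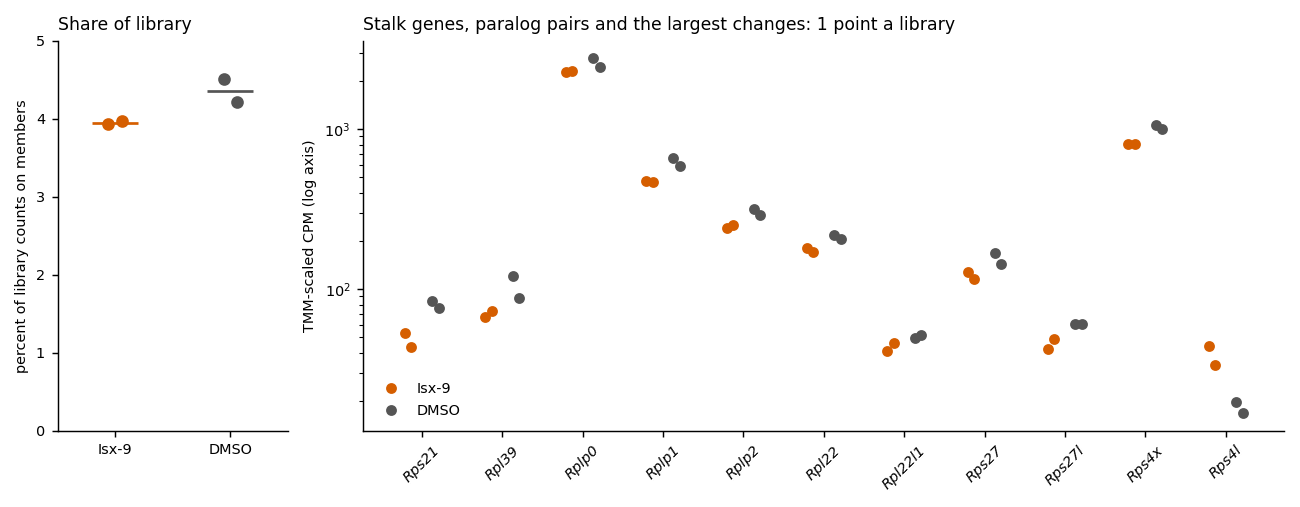
Left, the percent of each bulk library's counts on the members; right, CPM scaled by TMM on a log axis for selected members, 1 point a library, Isx-9 left of DMSO (the line in the left panel is the mean of 2). The members take 3.93% and 3.97% in Isx-9 libraries, and Rps4l is the gene among those shown with higher values in Isx-9 cells.

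The members as a whole took 4.36% of counts in bulk DMSO cells and 32.8% of UMIs in Lgr5 cells of the DMSO single-cell library. Levels thus differ between the assays for the whole set, and the cause was not tested. For Rps10 and Rpl24 the gap was wider still. Rps10 averaged 8.71 CPM in DMSO cells of the bulk data, among the lowest, but had 5900 UMI CPM in the Lgr5 cells of the DMSO single-cell library. The 3 rows for Rps10 with the ending -ps held 3656 and 3672 counts in Isx-9 cells, against 4309 and 3753 counts in DMSO cells. Rpl24, at 1.76 CPM in bulk DMSO cells and 3240 UMI CPM in the single-cell DMSO library, also stood apart and has no row with that ending, and neither gene was called (Rps10 -0.14, adjusted p = 0.647; Rpl24 -0.50, adjusted p = 0.457, edgeR). Rpl32l was estimated at -0.63 from 4 to 26 counts a library and was not called.

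Several ribosome-related lists held more genes that fell than genes that rose, in a comparison where 20% of all tested genes and 54.7% of genes at 100 CPM or more fell. Of 20 translation factors and other genes with the pyrimidine start feature, 17 fell and 0 rose (median log2 fold change -0.36), among them Eif4b at -0.77, Eef1a1 at -0.28, Pabpc1 at -0.33 and Tpt1 at -0.19. Of 55 ribosome biogenesis genes 48 fell and 1 rose (median -0.45). Nucleolin (Ncl) had 1175 and 1163 CPM in Isx-9 cells, against 1918 and 1842 CPM in DMSO cells (-0.69, adjusted p = 2.05e-05, edgeR), and the rRNA methyltransferase Fbl was at -0.57 and nucleophosmin (Npm1) at -0.45, both called. Of 15 tested RNA polymerase I genes 7 fell, led by Ubtf (-0.82), and 1, Taf1b, rose (0.91). Of 17 genes of mTOR signalling 14 fell and 0 rose (median -0.38), with Sesn2 at -0.99, the mTOR-regulated translation repressor Eif4ebp1 at -0.84 and Larp1, which binds the pyrimidine start feature, at -0.38. Of 77 mitochondrial ribosome genes 48 fell and 0 rose (median -0.41). Myc fell by 0.21 (145 and 142 CPM in Isx-9 cells, against 169 and 163 CPM in DMSO cells, adjusted p = 0.0345, edgeR), in a list of 11 where 4 fell and 3 rose, and of 16 p53 targets 5 rose and 3 fell. Outside the rule, 4 of 7 ribosomal or ribosome-associated genes fell, with Fau at -0.40 and Rpsa at -0.29.

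Members with and without the pyrimidine run at the annotated start lay close together. Of 21 tested members with the run 17 fell (median log2 fold change -0.27), and of 39 tested members without it 31 fell (median -0.28). Markers of other cells were low, and some moved with the treatment. Of tested markers, 4 of 4 mesenchymal and 3 of 4 endothelial or glial ones rose. Their summed levels were 58.4 and 40.5 CPM and 9.27 and 7.98 CPM in Isx-9 cells, against 6.24 and 7.27 CPM and 2.69 and 3.31 CPM in DMSO cells. Of 4 tested immune markers 0 rose and 1 fell. Of 35 cycling markers 19 fell and 0 rose, and of 11 stem cell markers 8 fell and 1 rose (summed 8087 and 6810 CPM in Isx-9 cells, against 10507 and 10363 CPM in DMSO cells), so stem markers were abundant in both groups. Mitochondrially encoded genes held 7.20% and 8.02% of counts in Isx-9 libraries, against 6.42% and 7.01% in DMSO libraries. The part of these in the members' decrease was not tested. In Lgr5 cells at 6 days the mesenchymal marker Vim had 331 UMI CPM in the Isx-9 library and 1.73 in the DMSO library. High Vim was thus also seen among Lgr5 cells, with 1 library a condition. Vim was the 1 mesenchymal marker compared in these cells, and the 1 compared in Chgb-high cells had a ratio of 0.33.

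The single-cell libraries were read by cell class. After filtering, 9185 cells were kept in the Isx-9 library, 8969 in the DMSO library, 9610 in the untreated reporter library and 8744 in the untreated wild-type library, with medians of 8888, 13388, 12633 and 15007 UMIs a cell. Pairs of libraries shared 13 to 35 cell barcodes. A cell was Chgb-high with at least 10 Chgb UMIs per 10000, cycling or differentiated if the summed markers of that kind passed a cut, and an Lgr5 cell if it passed none and had an Lgr5 UMI. These are ranges of a score and not types, and 278 to 752 cells a library lay within 10% of a cut. Without Chgb itself, the other 24 enteroendocrine markers summed in Chgb-high cells to 18585 CPM in the Isx-9 library and to 53336, 58547 and 56413 CPM in the DMSO, untreated reporter and untreated wild-type libraries, against 348 to 1144 CPM in Lgr5 cells. Without Lgr5 itself, the other 10 stem cell markers summed in Lgr5 cells to 2144 CPM in the Isx-9 library and to 4255, 3750 and 3515 CPM in the same 3 libraries, against 773 to 1111 CPM in Chgb-high cells. Both marker sums were thus lower in the Isx-9 library than in the other 3 within the class. The stem cell sum does not speak for most of its genes. In Lgr5 cells Olfm4 had 225 CPM in the Isx-9 library and 3009 CPM in the DMSO library. Over all 11 stem cell markers in these cells the median ratio of Isx-9 to DMSO was 1.45, with 6 at least 1.25-fold higher and 2 lower. Cycling and differentiated cells were cut on all of their markers, which leaves none to check them with. Chgb-high cells were 4111 in the Isx-9 library and 326, 347 and 356 in the DMSO, untreated reporter and untreated wild-type libraries, while differentiated cells were 80 in the Isx-9 library and 1500, 1492 and 1691 in those 3 libraries in the same order. The doublet caller marked 831 cells (8.30%) in the Isx-9 library and 0, 0 and 1 in the other 3, so it did not work there, and results that turn on it are given both ways. With 1 library a condition there is no test between conditions, and intervals cover counting error only.

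After 6 days the members held a smaller share of all UMIs in the Isx-9 library, and the difference was smaller at the class composition of the DMSO library. They took 26.07% of UMIs in the Isx-9 library (95% exact binomial interval 26.06 to 26.08), against 29.5% in the DMSO library, 29.2% in the untreated reporter library and 28.6% in the untreated wild-type library. Within the classes as cut, the Isx-9 and DMSO libraries lay closer together than over all cells. Lgr5 cells had 31.8% in the Isx-9 library and 32.8% in the DMSO library, cycling cells 29.1% in the Isx-9 library and 29.9% in the DMSO library, and differentiated cells 23.7% in the Isx-9 library and 24.8% in the DMSO library. Differentiated cells were an unlike mix, with 0 enterocyte-marker cells in the Isx-9 library and 519 in the DMSO library. Goblet-marker cells had 27.3% in the Isx-9 library and 30.5% in the DMSO library, and tuft-marker cells 16.3% and 21.8%. Given the class composition of the DMSO library, the Isx-9 library would have 28.4%. That is a difference of -1.07 percentage points in place of -3.42, with called doublets removed. Such a value takes each class as alike in both libraries, and the cause of the difference was not tested. Against all 3 other libraries the Isx-9 library lay inside their range in Lgr5 cells (32.2% and 31.7% in the untreated reporter and untreated wild-type libraries) and below it in cycling cells (29.5% and 29.4%) and differentiated cells (25.4% and 24.7%). The direction in differentiated cells turned when all cuts were halved (1.34 percentage points in place of -1.08), and the difference in Lgr5 cells was -0.30 in place of -0.98 when they were doubled.

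Chgb-high cells had a lower ribosomal protein share than Lgr5 cells in each library. Members took 16.2% of their UMIs in the Isx-9 library and 17.1%, 16.3% and 16.1% in the DMSO, untreated reporter and untreated wild-type libraries. The median Chgb-high cell had 15.6% in the Isx-9 library (quartiles 13.8% and 17.8%) and 14.2% in the DMSO library (quartiles 11.3% and 19.1%), so that medians and sums differ in direction. With called doublets kept, the share of Chgb-high cells was 18.3% in the Isx-9 library and 17.1% in the DMSO library, which turns the direction. Differentiated cells were mixed: in the DMSO library cells over the goblet cut had 30.5%, cells over the Paneth cut 22.0%, over the tuft cut 21.8% and over the enterocyte cut 20.2%. The order of goblet above the other 3 was the same in the untreated reporter library (30.4%, 22.8%, 21.8% and 20.7%) and in the untreated wild-type library (29.2%, 21.8%, 20.9% and 18.4%). In the Isx-9 library 45 goblet-marker cells had 27.3% and 30 tuft-marker cells 16.3%, with 5 and 0 cells over the Paneth and enterocyte cuts.

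**Figure D3:**
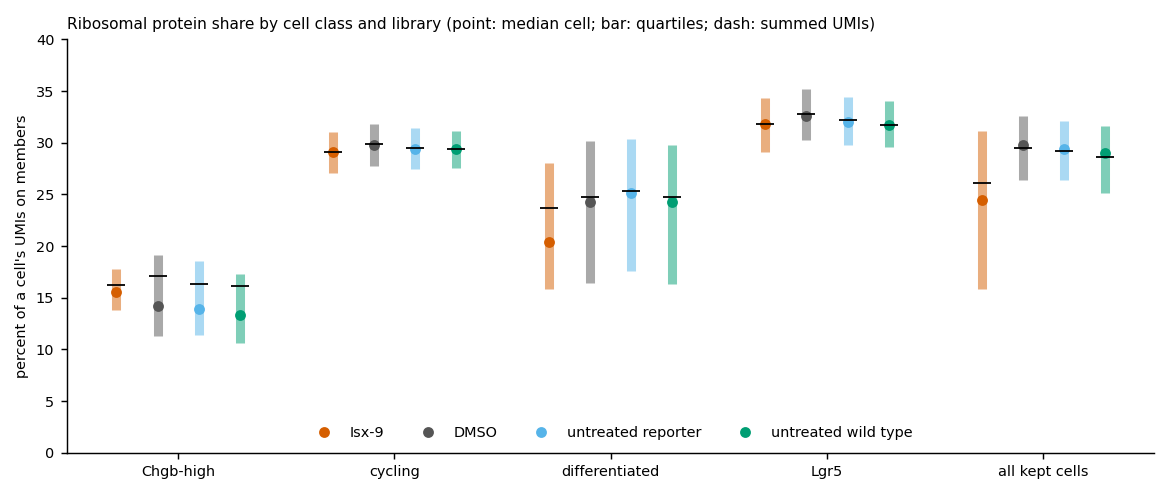
Percent of a cell's UMIs on the members by cell class and library: points are the median cell, bars the quartiles and dashes the share of the summed UMIs. Chgb-high cells lie lowest and Lgr5 cells highest in all 4 libraries, and within a class the Isx-9 library lies near the others except for the median of the 80 differentiated cells.

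Single members differed between the Isx-9 and DMSO libraries by more than the sum did. Over all kept cells the ratio of Isx-9 to DMSO had a median of 0.89 over 79 members (0.66 to 1.19), against 0.95 for the 1312 genes at 100 CPM or more and 1.26 for all 13981 genes compared. At least 1.5-fold lower were 2 members (9.90% of genes), at least 1.25-fold lower 10 (16.8%) and at least 1.25-fold higher 0 (50.4%). Within classes the medians were 0.96 to 0.98. Lower by 1.25-fold or more were 6 members in Chgb-high cells (17.7% of genes), 3 in cycling cells (16.9%), 4 in differentiated cells (16.4%) and 4 in Lgr5 cells (19.4%), and higher by as much were 1 (34.1%), 1 (33.0%), 3 (49.2%) and 1 (35.9%). As shares of the 79 members, each of these counts lies below the share over all genes.

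Rplp1, a stalk protein, had the lowest ratio. It had 4074 CPM in the Isx-9 library and 6218 CPM in the DMSO library over all cells, a ratio of 0.66 (interval 0.653 to 0.658), and its ratios were 0.62 in Chgb-high, 0.78 in cycling, 0.72 in differentiated and 0.75 in Lgr5 cells. Rpl41, one of the shortest proteins known in the ribosome, had 2904 CPM in the Isx-9 library and 4417 CPM in the DMSO library, with ratios of 0.66, 0.77, 0.73 and 0.75 in the same 4 classes. Rps28 had 1107 CPM in the Isx-9 library and 1553 CPM in the DMSO library, with ratios of 0.74, 0.74, 0.69 and 0.74. These 3 of the 79 members were at least 1.25-fold lower in all 4 classes, beside 323 of the 6920 genes with a ratio in each class (4.67%). As a share of the members the count lies below that over all genes. Rps2 (3526 CPM in the Isx-9 library and 5082 CPM in the DMSO library) and Rps18 (3701 CPM in the Isx-9 library and 5149 CPM in the DMSO library) were lower over all cells at 0.69 and 0.72, and their ratios ran from 0.73 to 0.87 and from 0.78 to 0.82 over the classes.

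Rpl35, a 60S protein beside the exit tunnel, was the 1 of 79 members higher by at least 1.25-fold in all 4 classes. Of all genes 13.1% were, a larger share than among the members. It had 2024 CPM in the Isx-9 library and 1699 CPM in the DMSO library over all cells (ratio 1.19, interval 1.18 to 1.20), and 1.30, 1.34, 1.32 and 1.34 in Chgb-high, cycling, differentiated and Lgr5 cells. Rpl27 had 550 CPM in the Isx-9 library and 486 CPM in the DMSO library (ratio 1.13 over all cells and 1.19 to 1.31 over the classes). Rps21, the member lowest at 6 hours, had 2856 CPM in the Isx-9 library and 2689 CPM in the DMSO library (1.06, and 1.10 to 1.17 over the classes). Rpl13a (411 CPM in the Isx-9 library and 396 CPM in the DMSO library) and Rpl10 (2416 CPM in the Isx-9 library and 2334 CPM in the DMSO library) were at 1.04 each over all cells, and Rpl10 lay on both sides of 1 over the classes.

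Among the stalk genes Rplp0 had a ratio of 0.95 and Rplp2 of 0.88 over all cells, beside 0.66 for Rplp1. Rpl22 was at 0.84 and Rpl22l1 at 0.90, Rps27 at 0.90 and Rps27l at 0.84, and Rpl7 at 0.96 and Rpl7l1 at 0.87. Rps4x was at 0.88, Rpl39 at 0.91 and Rpl3 at 1.02. Whether the members of a pair differ was not tested, and the ratios of Rps27 and Rps27l overlapped over the classes (0.87 to 0.98 and 0.82 to 0.98).

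Libraries without Isx-9 set the scale for these ratios. Between the DMSO and untreated reporter libraries 0 members were 1.25-fold lower over all cells (1.87% of genes) and 4 were 1.25-fold higher (2.66%): Rps29 at 1.29, Rpl38 at 1.26, Rps28 at 1.25 and Rps27 at 1.25, with Rps21 at 1.20, Rpl39 at 1.20, Rpl37 at 1.18 and Rpl37a at 1.17 after them. By class, 3 members were 1.25-fold higher in the DMSO library in Chgb-high cells (466 of 6739 genes) and 3 in cycling cells (263 of 11595 genes). In differentiated cells 0 were higher (381 of 10120 genes) and in Lgr5 cells 4 (211 of 10710 genes), with 0 lower in each class. Between the untreated reporter and untreated wild-type libraries 0 were lower over all cells (11.4%) and 0 higher (6.95%). Set against the untreated reporter library in place of DMSO, Rps28 was at 0.89 over all cells and at 0.81 to 0.95 over the classes, and Rpl41 at 0.73 and 0.77 to 0.86. Rplp1 stayed at 0.66 (0.68 to 0.79) and Rpl35 at 1.28 (1.38 to 1.45). At least 1.25-fold away in all 4 classes were then Rplp1 and Rps2, lower (4.59% of genes), and Rpl35 and Rps21, higher (12.7%). As shares of the 79 members, these counts too lie below those over all genes. The ratio of Rps28 thus depended on which library Isx-9 was set against, while those of Rplp1 and Rpl35 passed 1.25-fold against both. Both comparisons share the 1 Isx-9 library, and the comparison of DMSO with untreated shares the DMSO library.

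**Figure D4:**
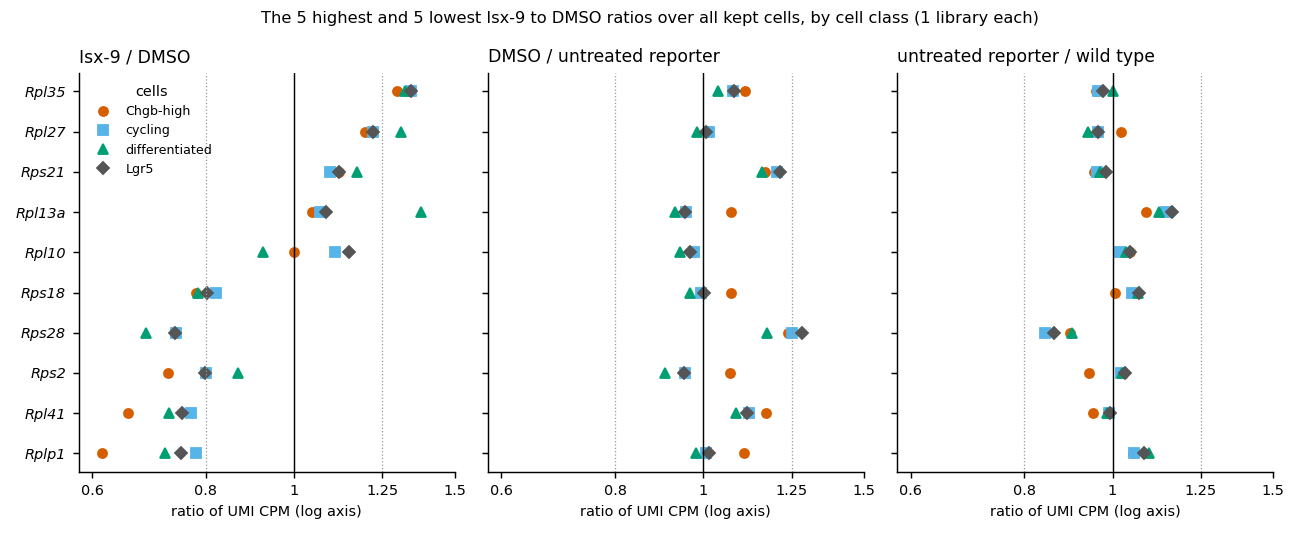
Ratio of UMI CPM (log axis) for the 5 highest and 5 lowest members by Isx-9 to DMSO ratio over all kept cells, in 4 cell classes, for 3 pairs of libraries; dotted lines mark 1.25-fold. Rplp1 and Rpl41 lie left of 0.8 in each class for Isx-9 over DMSO, and Rps28 and Rps21 lie right of 1.1 for DMSO over the untreated reporter library.

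With called doublets kept, Rpl41, Rplp1, Rps28 and Rpl35 passed 1.25-fold in all 4 classes as before. That is 3 of 79 members lower (4.63% of genes) and 1 higher (12.5%). In Chgb-high cells, however, the median ratio was then 1.07 with 21 of 79 members below 1, in place of 0.96 with 56 below 1, so the direction for the sum of the members in that class is not settled here. Other ribosome-related lists at 6 days, as ratios of Isx-9 to DMSO in Lgr5 cells, had medians of 0.83 (55 ribosome biogenesis genes), 0.80 (77 mitochondrial ribosome genes), 1.04 (20 translation factors), 0.86 (17 mTOR genes) and 0.97 (15 polymerase I genes), beside 0.98 for the members. Ncl had 650 CPM in the Isx-9 library and 816 CPM in the DMSO library in these cells, and Eef1a1 had 8286 CPM in the Isx-9 library and 8141 CPM in the DMSO library.

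Cell classes were compared across the 3 libraries without Isx-9, with the library as a block, on UMI sums. Chgb-high cells had less of each tested member than Lgr5 cells. All 79 tested members fell (edgeR, adjusted p under 0.05), beside 34.9% of 14552 genes and 69.3% of genes at 100 CPM or more, with a median log2 fold change of -1.45 (-2.03 to -0.87) against -0.02 over all genes. Each member was lower in all 3 libraries. Scaled by library size alone, the median of the members was -0.94 and that of all genes 0.49, and the 79 calls stood. Median depth was 7253 to 7725 UMIs in Chgb-high cells and 12355 to 14715 in Lgr5 cells, and its part in the fold changes was not tested.

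The 3 lowest in Chgb-high cells were Rpl12, Rps19 and Rps2. Rpl12, at the base of the stalk, had 1544, 1408 and 1470 CPM (TMM-scaled; DMSO, untreated reporter and untreated wild type) in Chgb-high cells, against 6089, 6149 and 5780 CPM in Lgr5 cells, which is -2.03 on the log2 scale (edgeR, SE 0.04, adjusted p = 1.55e-13). Rps19, whose human gene is mutated in Diamond-Blackfan anaemia, had 1561, 1427 and 1425 CPM in Chgb-high cells, against 6102, 5996 and 5593 CPM in Lgr5 cells (-2.00). Rps2 had 1625, 1524 and 1601 CPM in Chgb-high cells, against 6258, 6509 and 6270 CPM in Lgr5 cells (-2.00). For each of the 3, every library's sum in Chgb-high cells lay below every library's sum in Lgr5 cells. The 3 that fell least were Rpl37a (-0.87), Rpl26 (-0.95) and Rpl7l1 (-1.09). Rpl37a had 2154, 2019 and 2106 CPM in Chgb-high cells, against 4253, 3545 and 3711 CPM in Lgr5 cells. The stalk genes were at -1.75 (Rplp0), -1.73 (Rplp1) and -1.41 (Rplp2), and the pairs Rpl22 and Rpl22l1 at -1.55 and -1.70, and Rps27 and Rps27l at -1.24 and -1.32. Of 55 ribosome biogenesis genes 53 fell and 1 rose in the same contrast (median -1.38), and 76 of 77 mitochondrial ribosome genes fell (median -0.99). Myc was at -2.62 and Npm1 at -1.85, both called.

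Differentiated cells lay between. Of the 79 members 77 fell against Lgr5 cells and 0 rose (33.3% of all genes and 52.3% of genes at 100 CPM or more fell), with a median log2 fold change of -0.39 (-0.83 to -0.02). Rps2 fell most, with 3494, 3757 and 3439 CPM in differentiated cells, against 6258, 6509 and 6270 CPM in Lgr5 cells (-0.83, SE 0.04, adjusted p = 4.27e-10, edgeR). Rpl13a had 316, 331 and 276 CPM in differentiated cells, against 514, 533 and 456 CPM in Lgr5 cells (-0.70, adjusted p = 4.64e-09, edgeR). Neither gene overlapped between the classes. Rpl10, which joins the 60S subunit late in its assembly, did not pass: it had 2767, 2865 and 2591 CPM in differentiated cells, against 2786, 2854 and 2713 CPM in Lgr5 cells (-0.02, adjusted p = 0.55, edgeR). Rps24 did not pass either (-0.08, adjusted p = 0.0682, edgeR), and Rps27 fell by 0.15 (adjusted p = 0.00348, edgeR). Ribosome biogenesis genes had a median of -0.98 in this contrast, with 54 of 55 lower beside -0.39 for the members.

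**Figure D5:**
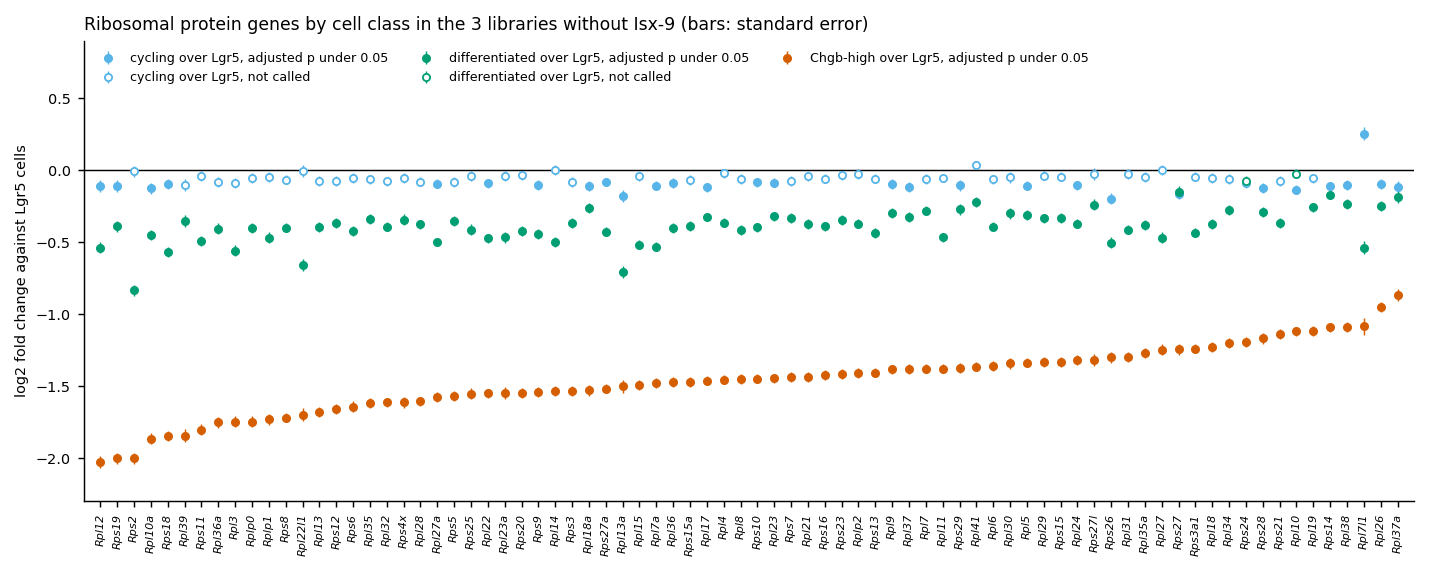
The log2 fold change of the tested members, 1 of them not drawn, in Chgb-high, differentiated and cycling cells against Lgr5 cells over the 3 libraries without Isx-9, with standard errors; filled points passed the edgeR test at an adjusted p under 0.05, and members run from the lowest to the highest Chgb-high value. Chgb-high values lie between -2.03 and -0.87, differentiated values between -0.83 and -0.02 and cycling values between -0.20 and 0.25.

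Cycling cells differed little from Lgr5 cells. Of the 79 members 28 fell (15.2% of all genes and 10.5% of genes at 100 CPM or more) and 1 rose (25.3%), with a median log2 fold change of -0.07 (-0.20 to 0.25). Over the settings tried the count ran from 2 to 71 lower members, and the share of all genes is given for some of these settings only. Rps26, at the exit of the messenger RNA channel, had 3644, 3378 and 3834 CPM in cycling cells, against 4281, 3833 and 4344 CPM in Lgr5 cells (-0.20, adjusted p = 0.00103, edgeR). Rpl7l1, a paralog of Rpl7, rose, with 139, 143 and 140 CPM in cycling cells, against 117, 117 and 120 CPM in Lgr5 cells (0.25, SE 0.04, adjusted p = 0.000429, edgeR). Ribosome biogenesis genes went the other way from the members, with 48 of 55 higher and 0 lower in cycling cells (median 0.24), Ncl among them at 0.38, and so did 64 of 77 mitochondrial ribosome genes (median 0.24). Without the DMSO library 2 members were lower (9.14% of genes tested), without the untreated reporter library 3 (7.54%), and without the untreated wild-type library 63 (18.6%).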

How the data were processed

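Bulk libraries held 18909542 to 19487264 gene counts, and the single-cell libraries 116046871 to 139401464 UMIs. The deposited bulk and 10x values are raw counts. The authors used Trim Galore 0.6.4, HISAT2, HTSeq 0.12.4, DESeq2 1.24.0, Cell Ranger 3.1.0 and Seurat 3.1.5 with build GRCm38, per the submitters' processing notes. The authors' deposited comparison table gives a mean normalised signal, log2 fold changes, a test score and p-values. Members and gene lists were chosen with earlier results of these data known. Bulk counts were tested with edgeR 4.0.16 (quasi-likelihood, TMM scaling, filterByExpr, Benjamini-Hochberg adjustment over all tested genes, threshold 0.05) in R 4.3.3, with DESeq2 1.42.0 as an alternative. Barcodes under 500 genes or 1000 UMIs, or over 20% mitochondrial UMIs, were dropped, as were doublets called by Scrublet (scanpy 1.11.5, Python 3.11.15). UMIs were summed per library and class. Class contrasts were fitted with edgeR, the library as a block, because classes of 1 library share it. Named members were the 5 highest and 5 lowest by bulk fold change, the 5 with the most bulk counts, the 5 highest and 5 lowest single-cell ratios, 3 and 3 per class contrast, the stalk genes and fixed paralog pairs. From each list up to 4 called genes with the largest change could be named, and 8 further genes such as Myc and Ncl whatever their result. Rps13, Rps3a2, Rpl6l and the members high in DMSO over untreated were singled out after their values were seen. The differences between bulk replicates 1 and 2 were barely correlated between Isx-9 and DMSO (0.011). That value cannot show whether libraries of equal number shared a culture, and no label says that they did. On simulated data with 200 changed genes, the bulk test recovered 0% of 1.25-fold, 45.0% of 1.5-fold and 70.5% of 2-fold changes. These genes were drawn from all levels with the rest unchanged, whereas many members are strongly expressed and many more genes were called here. The simulation therefore does not give the recovery for the members. Alternatives covered scaling, filters, tools, cell cuts and libraries left out. The 6 ATAC-seq samples were not analysed here, and values of some single genes are not reported here.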

Additional observations from a re-analysis of the deposited data

Results flagged for a closer look

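Of the 66 members that fell in bulk at 6 hours and had a ratio at 6 days, 58 were also below 1 at 6 days over all kept cells and 8 were above it. Over all 79 members with a ratio, 71 were below 1 and 8 above it, so the 58 of 66 lies near the share over all members. The 8 are all of the members above 1 at 6 days. The 8 stood out because Isx-9 lay below DMSO at 6 hours and above it at 6 days. The ratio of Isx-9 to DMSO at 6 days was 1.191 for Rpl35, 1.132 for Rpl27, 1.062 for Rps21, 1.036 for Rpl13a, 1.035 for Rpl10, 1.019 for Rpl3, 1.01 for Rps20 and 1.01 for Rps7. Their log2 fold changes at 6 hours ran from -0.73 (Rps21) to -0.20 (Rpl10). Set against the untreated reporter library, Rpl35 was at 1.28, Rps21 at 1.27 and Rpl27 at 1.14, while Rpl13a and Rpl3 were at 0.99 and Rps7 at 0.97. The time points differ in assay, cells and reporter, and the difference between them was not tested.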

How the results depend on the processing

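The bulk counts have 2 libraries a group and the conditions of the single-cell data 1 library each, so small changes of single members are poorly resolved. For bulk, higher and lower calls together were 68 and came to 19 with library size alone. They ran from 30 to 71 with 1 library left out, and lower calls alone, 67, were 18 with library size alone and ran from 29 to 70. As no label pairs libraries of equal replicate number, the fit with the replicate block is given here only. It called 64 members lower, and the share of all genes called in it is not given. Of 297 values for 33 named bulk results, 3 changed sign: with 1 library left out Rps3a3 ran from -0.32 (Isx-9 replicate 1) to 0.38 and was -0.12 without the first DMSO library, and Rpl32l ran from -1.42 to 1.22 (DMSO replicate 1).

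The share of UMIs over all cells, Isx-9 minus DMSO, was -3.42 percentage points. It was -3.26 with all deposited barcodes, -3.34 at 5000 or more UMIs, -3.50 at 10% or less mitochondrial UMIs, -3.89 without mitochondrially encoded genes, -1.07 at the DMSO class composition and -3.11 against the untreated reporter library. In Chgb-high cells (-0.89) the direction turned with all deposited barcodes (0.99) and with called doublets kept (1.26), and the difference was -0.73 at 10% mitochondrial, -0.50 with cuts halved, -1.75 with cuts doubled and -0.10 against untreated. In cycling cells (-0.83) the same settings gave -0.78 (all barcodes), -0.86 (5000 UMIs), -0.90 (10% mitochondrial), -1.21 (without mitochondrial genes), -0.60 (cuts halved), -0.99 (cuts doubled) and -0.43 (untreated). In differentiated cells (-1.08) the direction turned with cuts halved (1.34), and values were -0.83 (all barcodes), -1.46 (10% mitochondrial), -1.34 (without mitochondrial genes), -2.76 (cuts doubled) and -1.65 (untreated). In Lgr5 cells (-0.98) values were -0.90 (all barcodes), -1.15 (10% mitochondrial), -1.10 (doublets kept), -1.34 (without mitochondrial genes), -1.62 (cuts halved), -0.30 (cuts doubled) and -0.39 (untreated). The causes were not tested. A fold of 1.25 in place of 1.5 gave 10 members past it in place of 2. Settings using the untreated library or the DMSO composition, and TMM without the members, were chosen after seeing the data.

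Chgb-high cells had 79 called members in every setting tried, and differentiated cells 73 to 78. Cycling cells had 29, which became 67 with library size alone, 72 with DESeq2, 7 without the low-count filter, 7 without the library as replicate block, 12 with the Isx-9 library added, 7 with cuts doubled and 51 with TMM without members, and ran from 3 to 64 with 1 library left out. For lower calls with 1 library left out, the share of all genes ran from 7.54% to 18.6%. For the other settings that share is not given, so a change in the members cannot be told from a change in all calls. Of 198 values for 18 named class results 14 changed sign, all near 0. In cycling cells Rpl14 was -0.044 with library size alone, -0.037 with DESeq2, -0.0017 without the block, -0.059 with Isx-9 added, -0.016 with cuts doubled and -0.030 with TMM without members, and ran from -0.034 to 0.0076 with 1 library left out. Rpl41 was -0.013 with library size alone, -0.0058 with DESeq2 and -0.024 with Isx-9 added, and ran from -0.00013 to 0.034 with 1 library left out. In differentiated cells Rpl10 was 0.0039 with DESeq2 and 0.047 with cuts doubled.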

Other observations

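Rpl36al, a ribosomal protein gene outside the naming rule, was singled out after its values were seen. It had 341 UMI CPM over all kept cells in the Isx-9 library and 274, 274 and 272 UMI CPM in the DMSO, untreated reporter and untreated wild-type libraries. The ratio of Isx-9 to DMSO was 1.25 over all cells and 1.32 in Lgr5 cells. Fau, also outside the rule, had 3290 UMI CPM in the Isx-9 library and 4282, 4191 and 4336 UMI CPM in the other 3 in the same order, a ratio of Isx-9 to DMSO of 0.77. Each ratio compares 1 library with 1, with no replicate check.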
